A study of Mus musculus with 4 samples.

Results

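The genes described here encode the nuclear-encoded subunits of oxidative phosphorylation, the mitochondrial machinery that turns the oxidation of nutrients into ATP. They were taken from the array by gene symbol: complex I (Nduf symbols), complex II (Sdha to Sdhd), complex III (Uqcr), complex IV (Cox4 to Cox8) and complex V, the ATP synthase (Atp5). The rule found 87 genes of 22180 named genes, on 96 probe sets that carry 1 gene symbol each. It also took in 8 Ndufaf genes, which encode assembly factors that build complex I and are absent from the finished enzyme, so these are described apart from the subunits. Ndufa4 and its relative Ndufa4l2 were counted with complex IV, where the Ndufa4 protein is known to sit. Another 8 subunit symbols (Cox6c, Ndufb2, Ndufb4, Ndufb4b, Ndufb4c, Ndufs6, Ndufs6b and Uqcr10) occurred only on probe sets shared by several genes and were not used.

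Complexes I and II take electrons from NADH and succinate and pass them to ubiquinone, complex III hands them to cytochrome c, and complex IV gives them to oxygen. Complexes I, III and IV pump protons across the inner membrane, and complex V makes ATP as the protons flow back. Most subunits are encoded in the nucleus and imported, while a core of complexes I, III, IV and V is made from mitochondrial DNA, so the enzymes have to be assembled from both sources. Resting B cells that are activated are known to enlarge their mitochondria and to raise respiration before they divide.

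The data came from 4 arrays of mouse B lymphocytes on a C57BL/6 background, 1 array per group. The 4 groups were wild type non-stimulated, wild type stimulated, Tilcara non-stimulated and Tilcara stimulated. Tilcara mice carry a mutation in PKCbeta, a kinase that the stimulus used here acts on, since stimulated cells received the phorbol ester PMA at 10 ng/mL with the calcium ionophore A23187 at 1 µM for 4 hours. Cells of all groups came from suspensions of spleen, thymus and lymph nodes and were sorted with an antibody to B220 alone, a marker that some plasmacytoid dendritic cells also carry. The number of mice behind each array is not given in the labels.

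Values are log2 signals, so a difference of 1 is 2-fold. The level of one gene was not read against that of another. A gene was tested where its highest signal reached 3.83, the median of all named probe sets. That left 12456 genes, 83 of the 87 among them. The array medians lay between 3.73 and 3.79. The untested members were Cox7b2, with signals between 1.36 and 1.70, Cox8b, between 3.15 and 3.77, Cox8c, between 2.0 and 2.50, and Ndufs5, between 3.71 and 3.76. Cox7b2, Cox8b and Cox8c are tissue isoforms, and Ndufs5 is an accessory subunit of complex I. Of the 83, 79 were at or above 3.83 in every array, and Cox4i2, Cox6b2, Cox7a1 and Ndufa4l2 were there in some arrays only. Of the B cell markers, 7 of 8 could be matched, and all of them were above 3.83 in every array. Their summed log2 signal was 72.2 and 71.9 in the non-stimulated arrays of wild type and Tilcara, and 52.2 and 53.7 in the stimulated arrays. The summed signal of neutrophil markers was highest in non-stimulated wild type, mostly through S100a8 and S100a9, and their values stand beside the genotype results.

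The effect of stimulation was tested with limma, in 1 additive model over the 4 arrays with a term for stimulation and a term for genotype. The model has 1 residual degree of freedom, so a gene's own error measures how differently both genotypes responded, not the spread between mice. The eBayes step of limma draws each gene's error toward a value shared by all genes, and the SE and p rest largely on that value. For Atp5g1, whose responses differed by 0.0008, the SE was still 0.15. Genes are said to have risen or fallen only where the limma p, adjusted by Benjamini-Hochberg over all genes, was under 0.05. By this test 16 of the 83 members rose, 10 fell and 57 were not called. Among all genes tested, 22% rose, 22.8% fell and 44.8% changed in either direction, and 31.3% of the members changed. These shares depend on the filter on low signals: without it, 23% of 87 members and 22.7% of 22180 genes changed, so that the gap was not seen, and with a filter 1 unit higher 37.2% of 78 members and 58.7% of 9047 genes changed. The median stimulation change was 0.11 for the members and 0.04 for all genes. The median absolute change was 0.23 for the members and 0.50 for all genes. The members' median was positive with the deposited scaling and turned negative, to -0.07 in wild type and -0.04 in Tilcara, after a cyclic loess normalization of the arrays. Without assembly factors and tissue isoforms, 69 structural subunits were tested, of which 11 rose and 9 fell, or 29.0%. Genes were also sorted by mean log2 signal, although probe sets differ in brightness for reasons other than expression: at 9 or above, a limit chosen after the values were seen, 23.3% of 30 members and 49.1% of 540 genes changed. Under that limit, 35.8% of 53 members and 44.6% of 11916 genes changed.

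Beside these counts, the sorted cells' own markers moved as well. Of the 7 B cell markers, 6 fell by limma (85.7%, beside 22.8% of all genes). Among them was Ms4a1, which encodes the surface protein CD20. It had 10.64 and 8.23 in wild type and 10.81 and 8.23 in Tilcara, without and with stimulation. All 7 of the natural killer cell markers tested fell too. Of the other marker lists, 1 of 8 T cell genes tested fell (12.5%, Cd3d) and 1 of 4 of neutrophils (25%, S100a9). Of macrophages 2 of 7 fell (28.6%, Lyz2 and Adgre1, while Cd68 rose). Lyz2 and Adgre1 reached 3.83 in non-stimulated wild type alone. Of plasmacytoid dendritic cells 2 of 6 fell (33.3%, Siglech and Ly6d). Of muscle, 2 of 6 rose (33.3%, beside 22% of all genes), and of erythroid cells 1 of 3 (33.3%). The muscle genes that rose were Acta1 and Myh6. Myh6 reached 3.83 in stimulated wild type alone and was tested only through that array, so nothing is read from its call. Most of the genes that fell outside the B cell list were under 3.83 in both stimulated arrays. These were Ncr1, Klrd1, Klrk1 and Klre1 of natural killer cells, and Cd3d, S100a9, Lyz2, Adgre1 and Siglech. They were tested only through non-stimulated arrays, where they were higher, so nothing is read from their calls. In bulk samples such as these, fewer cells of a type and less RNA per cell cannot be told apart. The part of cell composition in the members' changes was not tested.

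**Figure D1:**
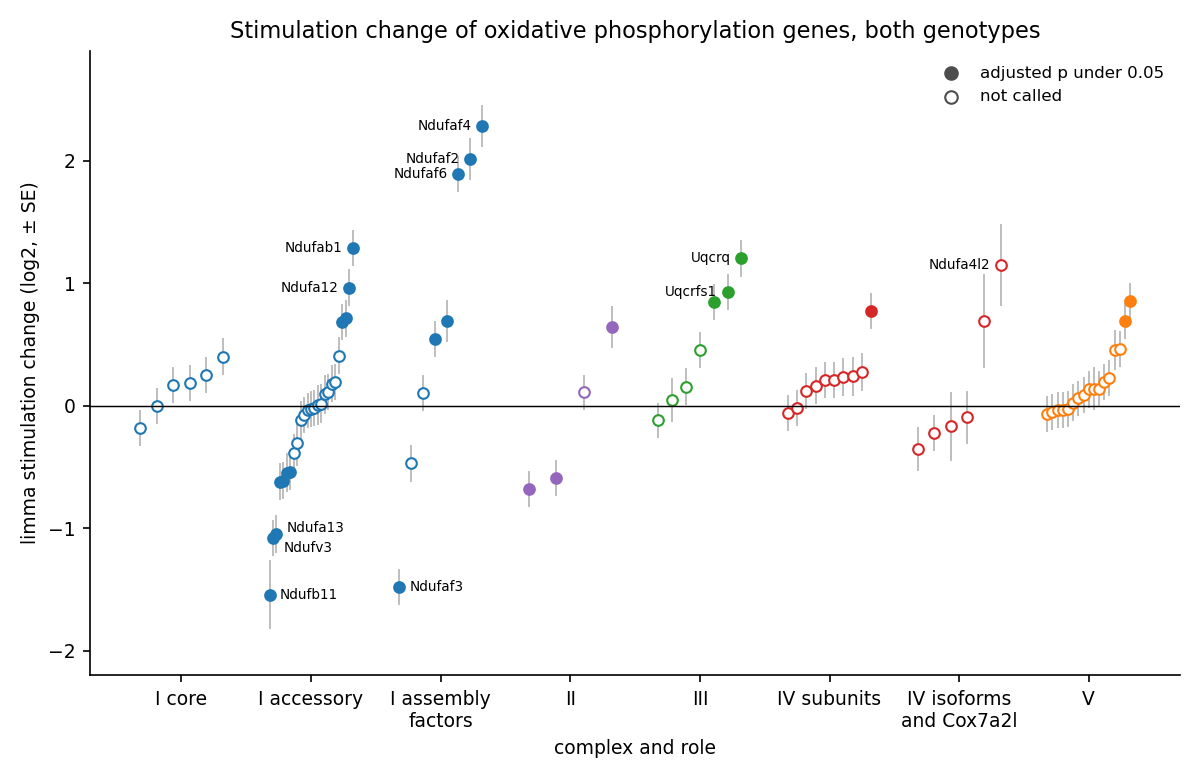
Stimulation change of the 83 tested genes from the limma model (y axis, log2, stimulated minus non-stimulated over both genotypes), arranged by complex and role (x axis); each point is 1 gene, the grey line its standard error and a filled point an adjusted p under 0.05. The changes of the core subunits of complex I lie between -0.18 and 0.40, whereas those of the complex I assembly factors lie between -1.48 and 2.29.

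Promoters of 5 members that rose, fell or were not called are printed to show what NRF1 matches look like; the members were picked because their windows hold one. Each runs 5′ to 3′ in the direction of the gene, its last 30 bases following the annotated start. Capitals mark matches to the NRF1 motif GCGCNTGCG or the ETS (GABPA) motif CCGGAAG on either strand. NRF1 and GABPA are transcription factors known for regulating nuclear genes of the respiratory chain. The sequences are RefSeq's for GRCm38.p6. Ndufaf4, an assembly factor that rose, is at chr4:24897833-24898112 on the plus strand. Ndufa12, an accessory subunit of complex I that rose, is at chr10:94198785-94199064 on the plus strand. Sdhd and Sdha, subunits of complex II that rose and fell, are at chr9:50603820-50604099 and chr13:74350211-74350490, both on the minus strand. Cox6a1, a subunit of complex IV that was not called, is at chr5:115348929-115349208 on the minus strand.
Ndufaf4: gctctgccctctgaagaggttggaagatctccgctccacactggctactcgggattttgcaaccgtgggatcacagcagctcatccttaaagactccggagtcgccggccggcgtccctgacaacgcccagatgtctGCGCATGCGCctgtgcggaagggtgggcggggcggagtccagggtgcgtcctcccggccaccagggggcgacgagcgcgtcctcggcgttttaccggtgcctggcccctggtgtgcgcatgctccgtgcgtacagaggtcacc
Ndufa12: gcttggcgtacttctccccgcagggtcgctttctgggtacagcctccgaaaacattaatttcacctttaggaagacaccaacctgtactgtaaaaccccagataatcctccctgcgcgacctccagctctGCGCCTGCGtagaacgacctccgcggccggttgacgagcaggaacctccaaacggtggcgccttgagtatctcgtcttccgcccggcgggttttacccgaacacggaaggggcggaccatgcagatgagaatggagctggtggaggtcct
Sdhd: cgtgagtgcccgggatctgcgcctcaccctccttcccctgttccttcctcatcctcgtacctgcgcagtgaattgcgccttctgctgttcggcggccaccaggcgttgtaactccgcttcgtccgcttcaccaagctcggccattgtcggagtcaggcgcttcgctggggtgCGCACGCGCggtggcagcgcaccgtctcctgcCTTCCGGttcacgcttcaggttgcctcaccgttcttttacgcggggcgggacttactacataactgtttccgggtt
Sdha: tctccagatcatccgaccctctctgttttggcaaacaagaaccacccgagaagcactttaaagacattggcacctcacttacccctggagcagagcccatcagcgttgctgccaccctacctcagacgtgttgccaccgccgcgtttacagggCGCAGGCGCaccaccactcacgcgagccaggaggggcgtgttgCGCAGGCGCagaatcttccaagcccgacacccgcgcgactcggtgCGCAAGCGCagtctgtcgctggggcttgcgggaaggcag
Cox6a1: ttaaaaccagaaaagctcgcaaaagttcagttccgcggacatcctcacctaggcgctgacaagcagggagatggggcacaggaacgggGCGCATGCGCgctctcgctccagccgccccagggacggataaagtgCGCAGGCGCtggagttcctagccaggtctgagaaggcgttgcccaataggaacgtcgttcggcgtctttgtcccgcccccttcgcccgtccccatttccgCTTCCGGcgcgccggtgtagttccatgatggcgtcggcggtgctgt

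In Ndufaf4 the matches on both strands overlap at -113 and -112 from the start, and Ndufa12 has its match at -120. Sdhd has an NRF1 match at -78 and an ETS match at -46. Sdha has NRF1 matches at -97, -54 and -9. Cox6a1 has overlapping NRF1 matches at -162 and -161, another at -116, and an ETS match at -16. RefSeq gave 77 windows of 300 bases for 72 of the 87 members, and 15 members had none. The NRF1 motif was in 24 of the 77 windows, or 31.2%, compared with 6.31% of all 32851 windows and 12.5% of the 12125 windows of tested genes. Matches were in 5 of 14 windows of members that rose, 2 of 8 of members that fell and 16 of 52 of members not called, the rest belonging to untested members. The ETS motif was in 24.7% of the members' windows, 8.86% of all windows and 16.8% of those of tested genes, with 5, 0 and 14 windows among those that rose, fell and were not called. The YY1 motif AAGATGGCG was in 9.09%, 1.4% and 2.89% of these windows. The E-box CACGTG, which MYC binds, was in 9.09%, 7.15% and 9.95%, and all 7 members' windows with it belonged to members not called. The ERR motif TCAAGGTCA was in 2.6%, 0.423% and 0.297%. Both strands were searched for each motif. A match describes the letters and does not show binding.

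In complex I, the median absolute change was 1.09 for the assembly factors, 0.38 for the accessory subunits and 0.18 for the core subunits. Of the 8 assembly factors, 5 rose (62.5%, beside 22% of all genes) and 1 fell (12.5%, beside 22.8%), with a median change of 0.62. Ndufaf4, an early assembly factor, had signals of 6.46 and 8.93 in non-stimulated and stimulated wild type cells and of 6.77 and 8.88 in Tilcara. Both stimulated arrays were above both non-stimulated ones. The change was 2.29 ± 0.17 (SE; limma adjusted p = 0.00171), which was 5.56-fold in wild type and 4.29-fold in Tilcara. Ndufaf2, a relative of the subunit Ndufa12 that occupies its place in a late assembly intermediate, had 5.18 and 7.39 in wild type and 5.66 and 7.47 in Tilcara. It rose by 2.01 ± 0.17 (limma adjusted p = 0.00219), and its stimulated signals were again the higher ones in both genotypes. Ndufaf6, needed early in the assembly of the membrane arm, had 5.23 and 7.08 in wild type and 5.02 and 6.95 in Tilcara, a rise of 1.89 ± 0.15 (limma adjusted p = 0.00183).

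Ndufaf3, whose protein works in a pair with Ndufaf4, moved the other way. Its signals were 6.70 and 5.29 in wild type and 7.10 and 5.55 in Tilcara, so that both stimulated arrays were the lower ones. It fell by 1.48 on the log2 scale (SE 0.15; limma adjusted p = 0.0031), or 2.65-fold in wild type and 2.93-fold in Tilcara. Smaller rises were found for Ndufaf1, part of the complex that builds the membrane arm, at 0.69 ± 0.17, and for Ndufaf8, at 0.54 ± 0.15. Neither was called after cyclic loess or without the filter on low signals. Ndufaf7, a methyltransferase, had 6.31 and 5.74 in wild type and 5.91 and 5.53 in Tilcara and was not called (limma adjusted p = 0.066). Ndufaf5, which hydroxylates the core subunit Ndufs7, had a change of 0.11 and was not called.

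Of the 6 nuclear-encoded core subunits tested, which carry the flavin and iron-sulphur clusters or surround them, none was called, beside 44.8% of all genes. Their changes ran from -0.18 to 0.40, with a median of 0.18. The largest was that of Ndufs3, with 6.86 and 7.19 in wild type and 6.90 and 7.38 in Tilcara (limma adjusted p = 0.0927). Its stimulated signals were the higher ones in both genotypes, but the difference did not pass the test.

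The accessory subunits of complex I, which surround the core, moved in both directions: of 25 tested, 4 rose, 7 fell and 14 were not called, with a median of -0.03. The share that changed was 44%, close to the 44.8% of all genes, with 16% rising and 28% falling beside 22% and 22.8%. Ndufab1 is the mitochondrial acyl carrier protein, which also serves fatty acid synthesis. It had 5.32 and 6.63 in wild type and 5.6 and 6.86 in Tilcara and rose by 1.29 ± 0.15 (limma adjusted p = 0.00405). Ndufa12 had 9.33 and 10.40 in wild type and 9.58 and 10.44 in Tilcara and rose by 0.97 ± 0.15 (limma adjusted p = 0.00933). Its other probe set had the same direction, from 7.82 to 8.70 in wild type and from 8.15 to 8.72 in Tilcara. The other subunits that rose were Ndufa10, by 0.71, and Ndufb6, by 0.68, the latter not called after cyclic loess.

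Among the accessory subunits that fell, Ndufb11, of the membrane arm, had the largest change. Its signals were 7.47 and 5.42 in wild type and 7.29 and 6.26 in Tilcara. Both genotypes were lower with stimulation, by 4.14-fold in wild type and by 2.04-fold in Tilcara, and the limma change was -1.54 ± 0.28 (adjusted p = 0.0137). Ndufv3, attached to the NADH-oxidizing tip, had 6.84 and 5.73 in wild type and 6.88 and 5.83 in Tilcara, a change of -1.08 ± 0.15 (limma adjusted p = 0.00624). Ndufa13, also known as GRIM-19, had 9.56 and 8.38 in wild type and 9.59 and 8.68 in Tilcara, a change of -1.05 ± 0.16 (limma adjusted p = 0.0081). For both genes the stimulated signals were below the non-stimulated ones in each genotype. Ndufb10, Ndufb3, Ndufa3 and Ndufa2 fell as well, with changes of -0.62, -0.61, -0.54 and -0.54. Ndufa2 and Ndufa3 were not called when the filter on low signals was dropped.

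The 4 subunits of complex II, the succinate dehydrogenase that also belongs to the citric acid cycle, did not move together. Sdha, the flavoprotein that oxidizes succinate, had 8.27 and 7.73 in wild type and 8.44 and 7.81 in Tilcara and fell by 0.59 on the log2 scale (SE 0.15; limma adjusted p = 0.0322). Sdhb, the iron-sulphur subunit, had 6.93 and 7.02 in wild type and 6.97 and 7.10 in Tilcara and was not called. The membrane anchors Sdhc and Sdhd, which together bind ubiquinone, moved in opposite directions. Sdhc had 6.74 and 6.13 in wild type and 7.17 and 6.43 in Tilcara, a change of -0.68 ± 0.15 (limma adjusted p = 0.0228). Sdhd had 6.48 and 6.94 in wild type and 6.45 and 7.28 in Tilcara, a change of 0.64 ± 0.17 (limma adjusted p = 0.0376). In both anchors the signals with and without stimulation did not overlap. Sdhd was not called after cyclic loess, and neither Sdha nor Sdhd was called without the filter on low signals.

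In complex III, 3 of 7 genes rose (42.9%, beside 22% of all genes) and none fell (beside 22.8%). Uqcrq, a small subunit beside cytochrome b, had 8.13 and 9.26 in wild type and 8.18 and 9.46 in Tilcara and rose by 1.21 ± 0.15 (limma adjusted p = 0.00502). Uqcrfs1, the Rieske iron-sulphur protein and the single nuclear-encoded catalytic subunit in this set, had 6.72 and 7.60 in wild type and 6.59 and 7.57 in Tilcara and rose by 0.93 ± 0.15 (limma adjusted p = 0.00918). Uqcrc1, a core protein facing the matrix, had 7.45 and 8.34 in wild type and 7.44 and 8.24 in Tilcara and rose by 0.85 ± 0.15 (limma adjusted p = 0.0117). In each of these genes both stimulated arrays were above both non-stimulated ones, and the genotypes lay close together. Uqcrc2, the partner of Uqcrc1, had a change of 0.46 that did not pass the test (limma adjusted p = 0.0639). Cyc1, the cytochrome c1 of this complex, is outside the symbol rule and rose by 0.78 ± 0.16 (limma adjusted p = 0.02).

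**Figure D2:**
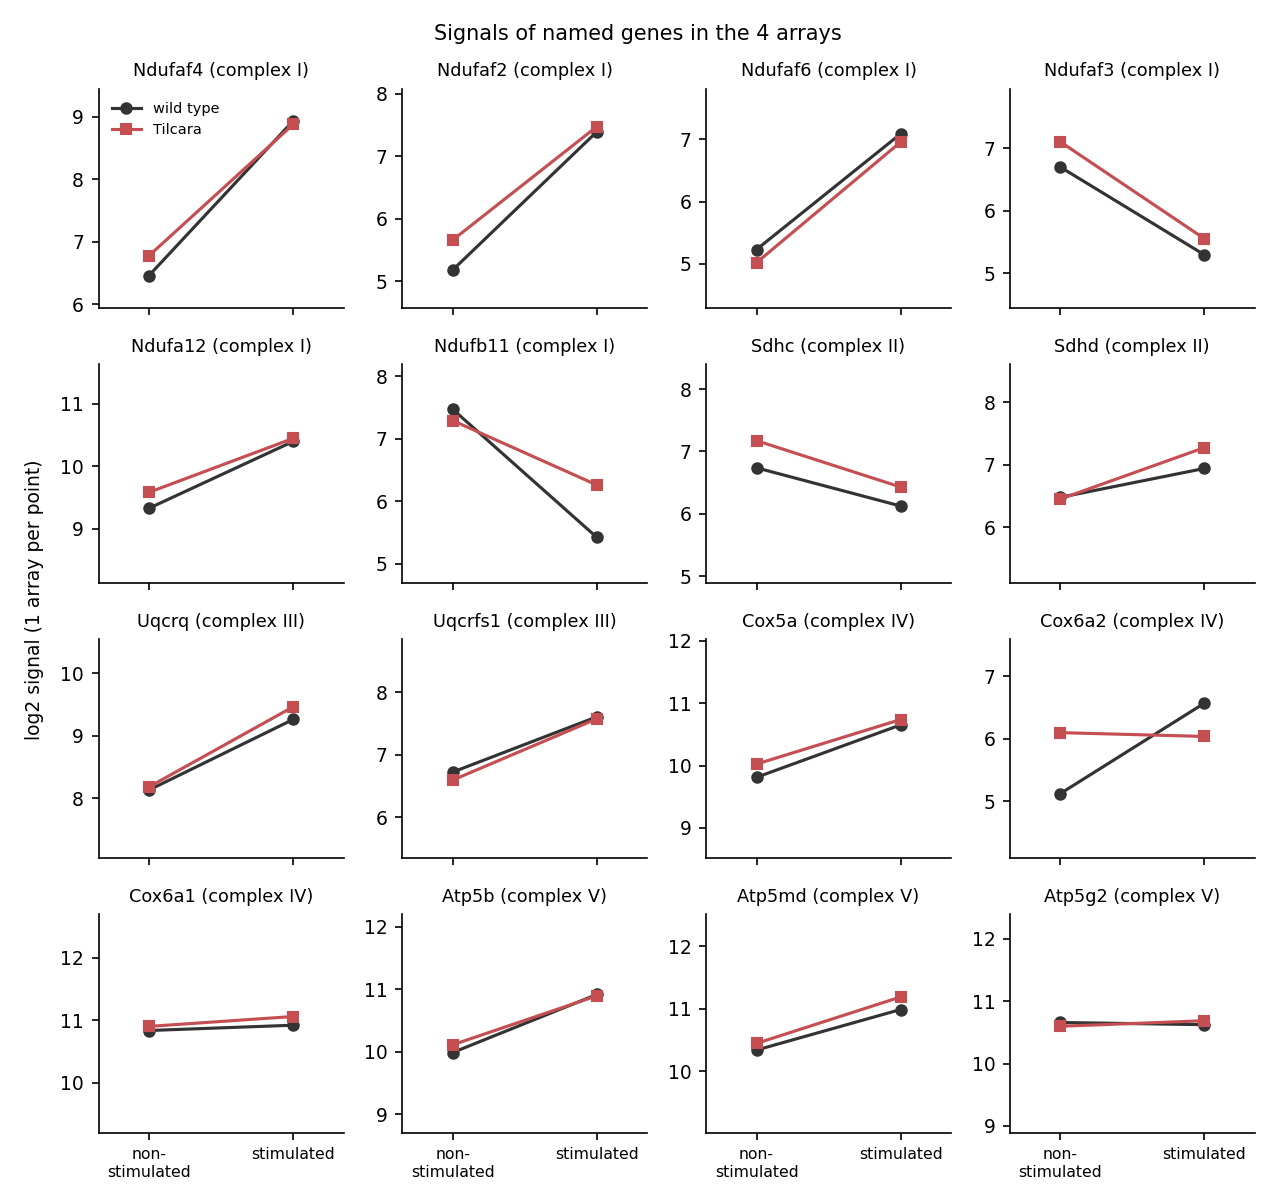
Log2 signal (y axis) of 16 genes in the 4 arrays, non-stimulated and stimulated (x axis), for wild type (black circles) and Tilcara (red squares); each point is 1 array and the y axes differ in position but not in length. Ndufaf4 goes from 6.46 to 8.93 in wild type and from 6.77 to 8.88 in Tilcara, while Ndufaf3, Ndufb11 and Sdhc go down in both genotypes.

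In complex IV, 1 of 16 genes rose (6.25%, beside 22% of all genes) and none fell (beside 22.8%). It was Cox5a, an accessory subunit, with 9.81 and 10.65 in wild type and 10.02 and 10.74 in Tilcara (change 0.78 ± 0.15; limma adjusted p = 0.0156). The other 9 subunits that are not tissue isoforms had changes between -0.06 and 0.27. Cox6a1, the form of subunit VIa found in most tissues, had 10.84 and 10.92 in wild type and 10.90 and 11.06 in Tilcara. Cox4i1, the usual form of subunit IV, had 10.35 and 10.46 in wild type and 10.23 and 10.45 in Tilcara. Their stimulated signals were slightly above the non-stimulated ones, by less than the called subunits. Cox6b1, at the side where cytochrome c docks, had 9.74 and 9.65 in wild type and 10.00 and 9.96 in Tilcara. Cox7a2 had 9.97 and 10.10 in wild type and 9.98 and 10.33 in Tilcara. Both are the common forms of their subunits and were not called. Cox8a had 9.92 and 9.87 in wild type and 9.94 and 9.95 in Tilcara. Ndufa4 had 10.25 and 10.40 in wild type and 10.24 and 10.63 in Tilcara. Neither passed the test, nor did Cox7a2l, with 7.65 and 7.08 in wild type and 7.51 and 7.38 in Tilcara. Other work describes the Cox7a2l protein as a factor that joins complexes III and IV. Whether it does so in these cells was not tested. Cox7b was measured by probe sets that differed: the brighter one, used here, had a change of 0.21 and was not called, and the other had one of 1.08; their mean was called.

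The tissue isoforms of complex IV subunits differed more between arrays, and none of the 5 tested was called. Cox6a2, the form of heart and skeletal muscle, had 5.12 and 6.57 in wild type and 6.10 and 6.04 in Tilcara. It was thus 2.73-fold higher with stimulation in wild type, while the Tilcara arrays differed by -0.06. The limma change was 0.69 ± 0.39 (adjusted p = 0.213). Other work lists Cox6a2 among genes of plasmacytoid dendritic cells. All 6 markers listed for these cells were measured: their summed log2 signal was 37.6 and 31.5 in wild type and 41.5 and 32.8 in Tilcara, with 5, 4, 6 and 4 of them at 3.83 or above. Most of the difference between the non-stimulated arrays was in Klk1, which had 2.75 and 2.17 in wild type and 6.41 and 2.09 in Tilcara. The Tilcara minus wild type difference there was 0.30 for Bst2, 0.13 for Ly6d, 0.12 for Siglech, -0.01 for Ccr9 and -0.30 for Tcf4. The summed signal of 6 muscle markers was 23.7 and 24.7 in wild type and 22.9 and 24.4 in Tilcara. The part of either cell type in the Cox6a2 signal was not tested.

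Ndufa4l2, known as a target of the hypoxia response, had 3.51 and 4.02 in wild type and 2.65 and 4.44 in Tilcara. Its stimulated signals were the higher ones, but it reached 3.83 only there and so was tested only through them. The limma change of 1.15 ± 0.34 (adjusted p = 0.0505) is therefore given as a description, and nothing is read from its calls in other settings. Cox4i2, a form known from lung, had 4.09 and 4.34 in wild type and 4.21 and 3.77 in Tilcara. Cox6b2, a form known from testis, had 3.49 and 3.84 in wild type and 4.16 and 3.48 in Tilcara. Cox7a1, a muscle form, had 3.84 and 3.58 in wild type and 3.39 and 3.21 in Tilcara. Each of these genes had signals on both sides of 3.83 and no call.

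In complex V, 2 of 17 genes rose (11.8%, beside 22% of all genes) and none fell (beside 22.8%). Atp5b, the catalytic beta subunit of the F1 head, had 9.99 and 10.92 in wild type and 10.11 and 10.90 in Tilcara and rose by 0.86 ± 0.15 (limma adjusted p = 0.012). Its partner in the head, the alpha subunit Atp5a1, had 9.97 and 10.49 in wild type and 9.93 and 10.34 in Tilcara, and its change of 0.46 did not pass the test (limma adjusted p = 0.0637). Atp5md, a small membrane subunit of the ATP synthase, had 10.34 and 10.99 in wild type and 10.44 and 11.19 in Tilcara and rose by 0.70 ± 0.15 (limma adjusted p = 0.0206). In all of these the stimulated arrays were the higher ones in both genotypes, but Atp5md was not called after cyclic loess. Atp5g1, Atp5g2 and Atp5g3 encode the same mature protein, the subunit c of the rotor. Atp5g1 had 4.02 and 4.08 in wild type and 4.02 and 4.08 in Tilcara. Atp5g2 had 10.66 and 10.62 in wild type and 10.60 and 10.69 in Tilcara. Atp5g3 had 9.24 and 9.55 in wild type and 9.17 and 9.77 in Tilcara, the largest change of the trio at 0.45 (limma adjusted p = 0.0818). None of the trio was called. The 15 members of complex V that were not called had changes between -0.07 and 0.46.

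Seen by complex, 43.6% of the genes tested changed in complex I, 75% (3 of 4 genes) in complex II and 42.9% in complex III. In complex IV it was 6.25% and in complex V 11.8%, beside 44.8% of all genes. The share of complex I includes its assembly factors. Without them, 11 of 31 genes changed (35.5%), with a median of -0.002. With all genes tested, the median changes were 0.02, -0.24, 0.46, 0.19 and 0.14 in the order of the complexes. Cyclic loess turned those of complexes I, IV and V negative. The differences between complexes were not tested.

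Other mitochondrial genes give the setting for these values. Of 44 assembly factors of complexes I to V outside the symbol rule, 14 rose (31.8%, beside 22% of all genes) and 8 fell (18.2%, beside 22.8%), with a median of -0.10. The largest change was that of Sdhaf4, which protects Sdha during the assembly of complex II, at -2.61 ± 0.16. Next were Tmem126b, of the membrane arm assembly complex of complex I, at -1.6, and Coa7, a complex IV factor, at 1.5. Sdhaf4 had 5.42 and 2.92 in wild type and 6.43 and 3.70 in Tilcara, so its stimulated signals were under 3.83. It was tested only through its non-stimulated arrays, so its size is uncertain and nothing is read from its call. The same limit holds for Nubpl, also among the 8 that fell, with 4.57 and 3.49 in wild type and 4.51 and 3.74 in Tilcara. Of 19 genes of electron carriers and ubiquinone synthesis, 5 rose (26.3%) and 3 fell (15.8%). Coq10b, a ubiquinone-binding protein, changed by 2.09, Etfb, which feeds electrons from fatty acid oxidation, by -2.02, and Coq4, of ubiquinone synthesis, by 1.27. Of 16 citric acid cycle genes, 8 rose (50%) and 2 fell (12.5%), led by the dehydrogenases Idh3a, at 1.70, and Idh2, at -1.57, and by Dlat of the pyruvate dehydrogenase complex, at 1.12.

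Of 15 regulators of mitochondrial biogenesis, 6 rose (40%, beside 22% of all genes) and 1 fell (6.67%, beside 22.8%). Myc, a transcription factor of growth, changed by 1.98, the coactivator Pprc1 by 1.73 and Gabpb1, a partner of GABPA, by 1.26. Nrf1, whose motif is printed above, was not called, with 6.55 and 6.66 in wild type and 6.28 and 6.45 in Tilcara. Of 22 genes of protein import and mitochondrial chaperones, 17 rose (77.3%) and none fell, with a median of 1.38. The translocase genes Timm8a1, Timm50 and Tomm40 had the largest changes there, at 2.43, 2.37 and 2.26. None of the 13 subunits encoded in mitochondrial DNA was found on a probe set with 1 symbol, so they were not analysed here.

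**Figure D3:**
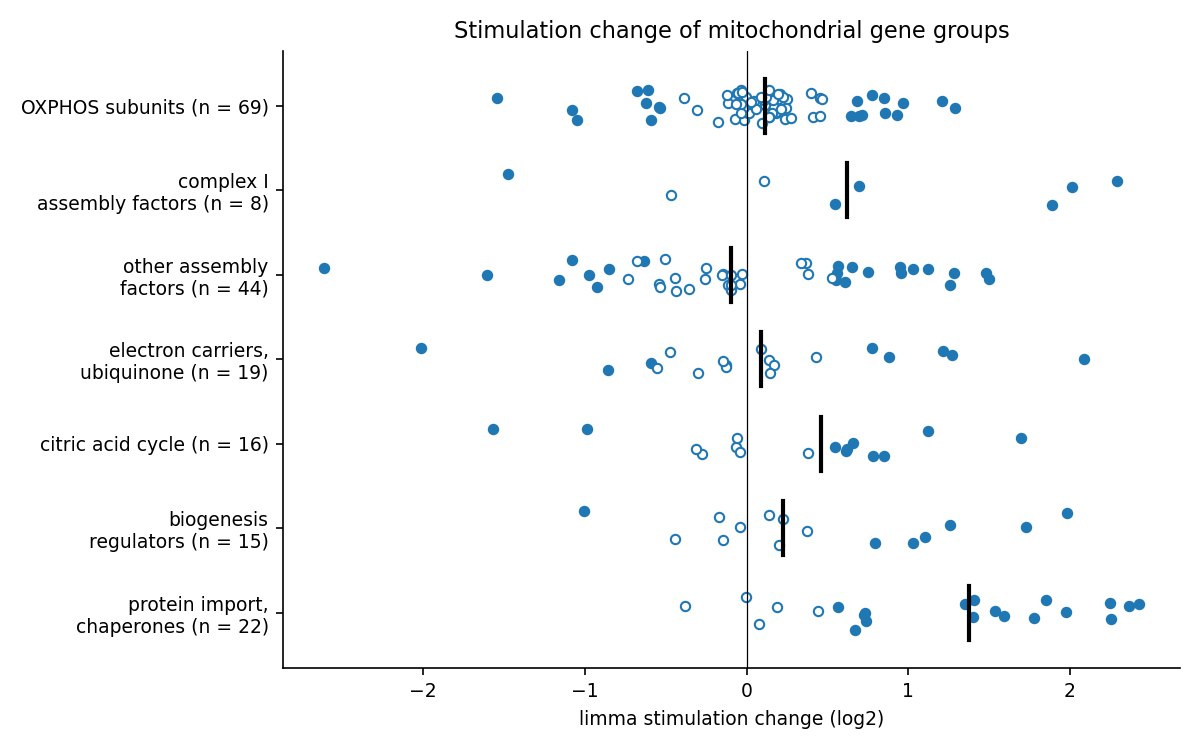
Limma stimulation change (x axis, log2, stimulated minus non-stimulated) of each tested gene in 7 groups of mitochondrial genes (y axis, n genes each); filled points have an adjusted p under 0.05 and black bars are group medians. The subunits have a median of 0.11, which cyclic loess turned negative, and the genes of protein import and chaperones one of 1.38.

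The responses were also read in each genotype, where 1 array against 1 array allows no test. In wild type, 30 of the 83 members differed by at least 0.5 (36.1%, beside 54.1% of all genes), 17 of them higher (26.9% of all genes) and 13 lower (27.2% of all genes) with stimulation. At 2-fold or more, 7 members were higher, beside 13.4% of all genes, and 4 were lower, beside 15.9%, which made 13.3% of the members and 29.3% of all genes. In Tilcara, 28 members differed by at least 0.5 (33.7%, beside 49.9%), 18 of them higher (beside 25%) and 10 lower (beside 24.9%). A difference of 2-fold or more upward was seen in 6 members, beside 11.9% of all genes, and downward in 3, beside 14.3%, which made 10.8% of the members and 26.2% of all genes. The median response of the members was 0.12 in wild type and 0.14 in Tilcara, with the change of sign after cyclic loess given above. All 26 members called by limma had the same sign in both genotypes, which the test itself favours, and 13 of them had the larger response in wild type. Ndufaf4, Ndufaf2, Ndufaf6, Ndufab1 and Uqcrq were at least 2-fold higher in both genotypes, and Ndufb11, Ndufaf3 and Ndufv3 at least 2-fold lower in both. As a description, the responses of both genotypes had a Pearson r of 0.874 across the members and 0.913 across all genes. All points share the same 4 arrays, and genes are not independent replicates.

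**Figure D4:**
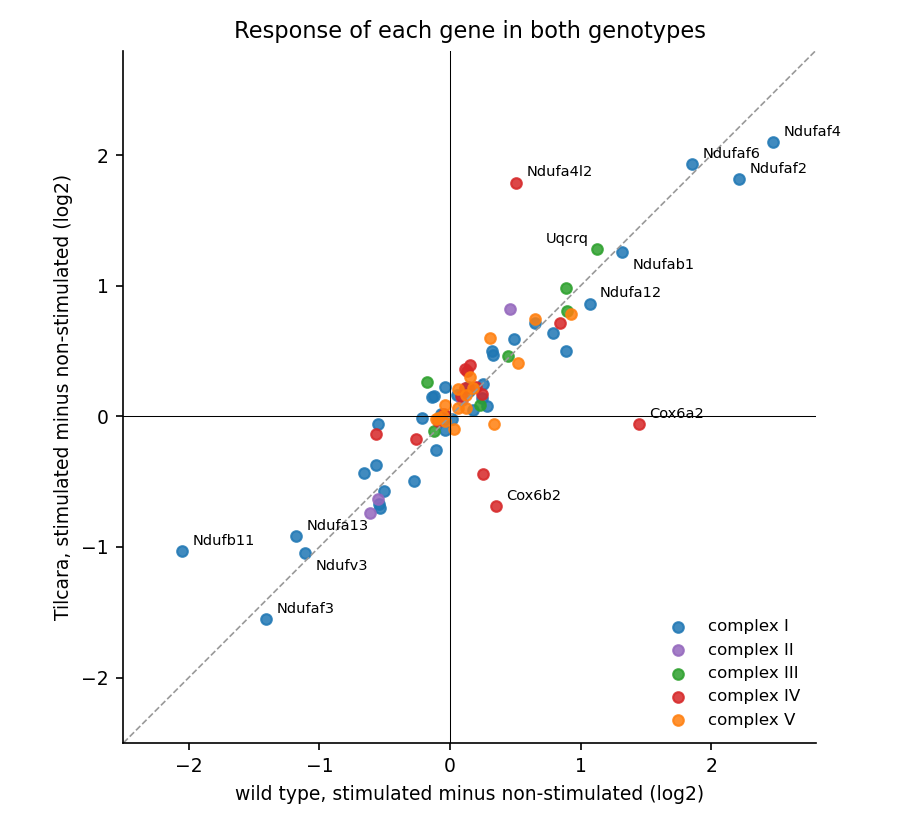
Stimulated minus non-stimulated log2 signal of each of the 83 genes in wild type (x axis) and Tilcara (y axis), coloured by complex; each point is 1 gene, each axis rests on 1 array per state, and the dashed line marks equal responses. Most genes lie near the line; Cox6a2 (1.45 and -0.06), Ndufa4l2 (0.51 and 1.79), Cox6b2 (0.35 and -0.69) and Ndufb11 (-2.05 and -1.03) lie farthest from it.

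The responses of Tilcara and wild type differed by at least 0.5 in 5 members (6.02%, beside 22.8% of all genes) and by at least 1 in 4 (4.82%, beside 3.97%). The difference, Tilcara response minus wild type response, was -1.51 for Cox6a2, 1.28 for Ndufa4l2, -1.04 for Cox6b2 and 1.02 for Ndufb11. For Cox6a2, Ndufa4l2 and Cox6b2 these are tissue isoforms with no call by limma, and 2 of them have signals around 3.83. Ndufa4l2 and Cox6b2 reached 3.83 in 2 arrays each and were tested only through these. Ndufb11 was lower with stimulation in both genotypes, and its stimulated signal was 5.42 in wild type and 6.26 in Tilcara. These differences have no replicate check.

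Between genotypes, limma called 0 members and 0 of all genes (0%), and the smallest adjusted p was 0.866. Without adjustment, 2 members and 667 of the 12456 genes (5.35%) had a p under 0.05. The members were Ndufb3, an accessory subunit of complex I, with a Tilcara minus wild type difference of 0.49 (limma unadjusted p = 0.0259), and Cox7a1, with a difference of -0.41 (limma unadjusted p = 0.0447). Cox7a1 reached 3.83 in non-stimulated wild type alone and was tested only through that array, so its p supports nothing. No alternative setting called a member for genotype.

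Without stimulation, 57 of the 83 members were higher in Tilcara (68.7%, beside 52.2% of all genes), by a median of 0.06. That median was 0.12 after median centring and 0.027 after cyclic loess, with 79.3% and 57.8% of the members higher beside 61% and 53.9% of all genes. Only 4 members differed by at least 0.5 (4.82%, beside 10.2%) and 0 by at least 1 (beside 1.08%). The members farthest above wild type were Cox6a2 (0.98), Cox6b2 (0.67), Ndufb3 (0.55) and Ndufaf2 (0.48), and Ndufb3 had 7.0 in wild type and 7.56 in Tilcara. Farthest below were Ndufa4l2 (-0.86), Cox7a1 (-0.45), Ndufaf7 (-0.40) and Atp5c1 (-0.33), the gamma subunit of the rotor shaft, with 5.70 in wild type and 5.37 in Tilcara. With stimulation, 62 of the 83 were higher in Tilcara (74.7%, beside 51.8%), by a median of 0.10, or 0.11 after median centring and 0.056 after cyclic loess. There, 3 members differed by at least 0.5 (3.61%, beside 12.2%) and 0 by at least 1 (beside 1.7%). Farthest above wild type were Ndufb11 (0.84), Ndufb3 (0.42), Ndufa4l2 (0.42) and Sdhd (0.33), and farthest below were Cox4i2 (-0.57), Cox6a2 (-0.53), Cox7a1 (-0.36) and Cox6b2 (-0.36). Differences of this kind have no test, since each rests on 1 array per genotype. The median residual SD of the additive model, after the eBayes step, was 0.16.

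Limma called no marker for genotype, but 1 array stood apart in markers of other cells. The summed log2 signal of 9 neutrophil markers was 41.1 in non-stimulated wild type, 28.6 in non-stimulated Tilcara, and then 28.1 and 26.4 in their stimulated counterparts, with 3, 2, 1 and 0 of them at 3.83 or above. S100a8, a calcium-binding protein abundant in neutrophils, had 9.0, 3.81, 2.75 and 2.36 in that order, and S100a9 had 7.61, 4.09, 3.48 and 2.47. Most of the difference between the non-stimulated arrays was in S100a8 and S100a9. Mpo alone was higher in Tilcara there, with 3.60 in wild type and 3.84 in Tilcara. Ly6g, Camp, Ltf, Ngp and Csf3r were under 3.83 in every array. The summed signal of 9 T cell markers was 39.8, 33.1, 33.2 and 30.8 in the same order. Their part in the genotype differences of the members was not tested.

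**Figure D5:**
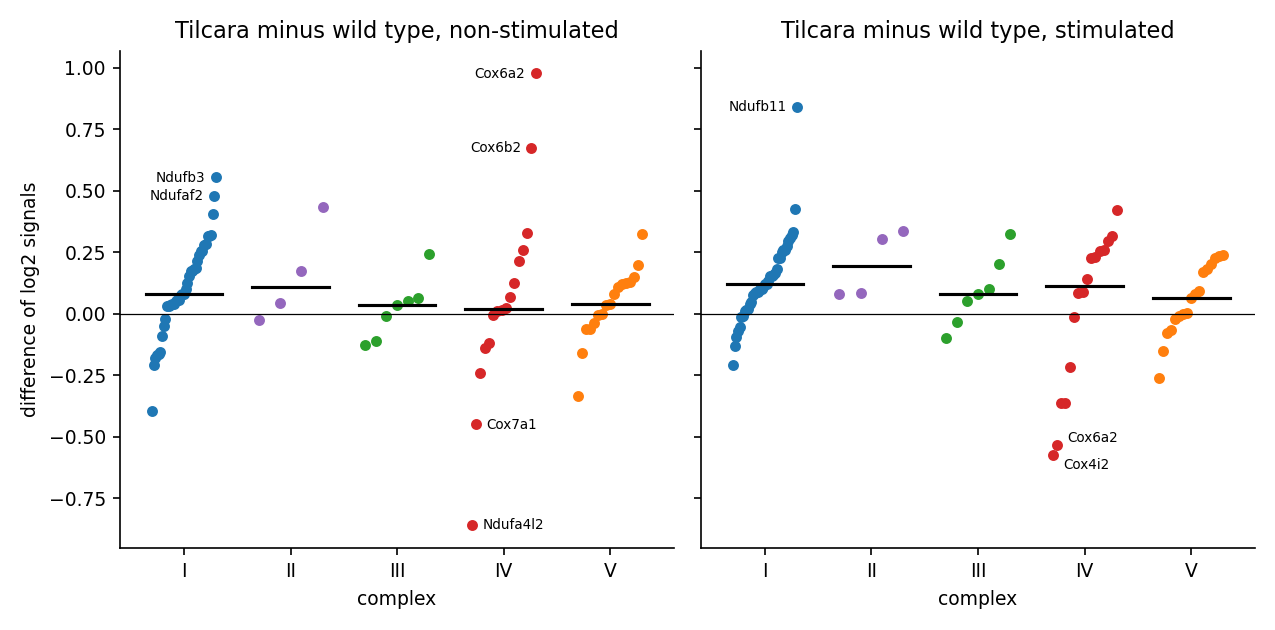
Tilcara minus wild type log2 signal (y axis) of each of the 83 genes by complex (x axis), without stimulation (left) and with stimulation (right); each point is 1 gene from 1 array per genotype, and black bars are medians. The points lie between -0.86 (Ndufa4l2) and 0.98 (Cox6a2) on the left and between -0.57 (Cox4i2) and 0.84 (Ndufb11) on the right.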

How the data were processed

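Gene expression was measured on 4 arrays of sorted mouse B cells, 1 per group. The deposited table holds log2 signals that the authors made with RMA, per the submitters' processing notes; version, settings and genome build were not given in the sources used here. Quantile normalization, a part of RMA, hides a change in the total RNA of a cell. Probe sets with 1 symbol in the platform annotation were named (23521 of 41345), and the one with the highest mean stood for its gene. Of 9 members with several probe sets, only Cox7b differed by over 0.5 between them in its change. Genes reaching 3.83 in any array were tested with limma 3.58.1 in R 4.3.3 (stimulation plus genotype), with Benjamini-Hochberg adjustment over 12456 genes at 0.05. Single differences were counted at 0.5 and 1. Other settings were median centring, cyclic loess, the mean over probe sets, no filter, a filter 1 unit higher, and eBayes with trend and robust. The limma step was also run on simulated data with independent noise and the same response in both genotypes. That run checks the working of the step and not the error of these data, where the responses of the genotypes differ.

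Within each complex the members named were the 3 with the largest called change in each direction, then the largest in size. Also named were the 4 with the largest genotype difference in each direction and state, the 4 with the largest difference in response, tissue and copy isoforms, and untested members; for other lists, the 3 largest changes. Further members, among them the remaining called ones, were named after their values were seen. So were the genes Cyc1, Nrf1, Nubpl and Ppargc1a, and single marker genes. Members and lists were chosen with earlier results of these data known. Among marker lists, those of macrophages and erythroid cells had summed log2 signals of 40.4 and 12.3 in non-stimulated wild type, 35.0 and 13.8 in stimulated wild type, 34.9 and 11.6 in non-stimulated Tilcara, and 34.2 and 12.7 in stimulated Tilcara.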

Additional observations from a re-analysis of the deposited data

Results flagged for a closer look

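In 3 members the response had opposite signs in the genotypes, each response being larger than the residual SD of the additive model. That is 3.61% of the 83 members tested, and 5.61% of all genes tested met the same rule. The difference was not tested, since each group has 1 array. Uqcr11, a small subunit of complex III, had 7.34 and 7.17 in wild type and 7.23 and 7.49 in Tilcara, so that the Tilcara response exceeded the wild type response by 0.44. The same difference was -0.70 for Cox4i2 and -1.04 for Cox6b2, tissue isoforms of complex IV whose signals lay around 3.83. Cox6b2 reached 3.83 only in stimulated wild type and non-stimulated Tilcara. It was thus tested only through the arrays that give its opposite signs, and nothing is read from them.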

How the results depend on the processing

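The members' count of 16 rising and 10 falling genes became 12 and 12 after cyclic loess (28.9% of members, 46.5% of all genes), 13 and 7 without a filter (23% and 22.7%), 17 and 10 after median centring, 18 and 10 with the mean over probe sets, 18 and 11 with the higher filter (37.2% and 58.7%) and 22 and 11 with trend and robust (39.8% and 47.6%). The rising counts after cyclic loess, after median centring, with the mean over probe sets and with trend and robust include Ndufa4l2. That gene was tested only through its stimulated arrays, and nothing is read from its call. The 26 called members were all called again in the same direction after median centring, with the mean over probe sets, with the higher filter and with trend and robust. After cyclic loess 21 of them were called again and without a filter 20. Cyclic loess moved the member medians to -0.069 in wild type and -0.042 in Tilcara, and the medians of complexes I, II, III and IV to -0.16, -0.43, 0.25 and -0.023; the cause was not tested. After median centring 1 member differed by at least 1 between the non-stimulated genotypes. With the higher filter, which tests fewer genes, 2 members differed by at least 0.5 there, and 2 responses differed by at least 0.5 and 2 by at least 1. Without assembly factors and tissue isoforms, a setting chosen after seeing the data, 11 rose and 9 fell; leaving out the member whose probe sets differ, also chosen then, left 16 and 10. No paired analysis was possible because each group holds 1 array. Leaving out any array leaves no residual degrees of freedom, so no test was run that way. Signals near 3.83 limit Cox4i2, Cox6b2, Cox7a1 and Ndufa4l2.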
